A study of Homo sapiens with 17 samples.

Results

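The genes described here are 50 genes of the IRE1-XBP1 pathway and of protein folding in the endoplasmic reticulum (ER), out of 19141 genes counted. They were taken as a list of named genes, with no threshold on their values: stress sensors, genes known as XBP1 or ATF6 targets, ER chaperones, translocation factors and genes of ER-associated degradation. All 50 were found in the count table and all 50 passed the filter on low counts. RNA was sequenced from YB5 cells, a human colon cancer line derived from SW48 that carries 1 insertion of a GFP gene behind a methylated and silent cytomegalovirus promoter. The cells were exposed to 250 nM toyocamycin, an adenosine analogue made by Streptomyces and reported to block the splicing of XBP1 mRNA, or to the vehicle DMSO. The 17 libraries analysed were 2 DMSO and 2 toyocamycin libraries at 2 h, 1 DMSO and 2 toyocamycin libraries at 10 h, 1 library of each treatment at 24 h and at 48 h, and 3 of each at 72 h. The last time is given as 72 h in the labels, whereas the paper names a later hour, and 72 h is used here as a label. All cells were of the same line, so no other cell background was tested.

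The unfolded protein response keeps the folding capacity of the ER in step with its load. IRE1, encoded by ERN1, is a kinase and nuclease of the ER membrane that cuts XBP1 mRNA, and the religated mRNA encodes an active transcription factor; ATF6 is a second sensor, cut in the Golgi to release a factor that binds many of the same promoters, and PERK is the third. Their targets include the chaperone HSPA5 (also called BiP), the enzymes that form disulfide bonds, the channel and peptidase through which new proteins enter the ER, and the machinery that returns misfolded proteins to the cytosol. The values below are gene counts, in which spliced and unspliced XBP1 cannot be told apart, so they show the amount of XBP1 mRNA and not its splicing.

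Between 8735465 and 22121364 reads per library fell on genes. Toyocamycin replicate 2 at 10 h stood apart. It had the fewest counts and the highest share on mitochondrially encoded genes (6.55%), and its best correlation with any other library was 0.916, whereas every other library reached at least 0.953. Results at 10 h are therefore given with and without it. The colon markers EPCAM, KRT8, KRT18, CDH1 and CDX2 were present in every library, whereas KRT20 was at or near 0 in every library, LGALS4 was at or near 0 in every DMSO library and VIL1 was low. The summed level of the 8 colon markers was 1734 to 6681 CPM (gene counts relative to library size, scaled by TMM) in the DMSO libraries and 527 to 560 CPM after 72 h of toyocamycin. The 8 markers of fibroblasts, immune cells and endothelium summed to 0.578 to 11.1 CPM in DMSO, and to 4.91 to 22.4 CPM after 72 h of toyocamycin, where 0 to 2 of them were at 0. At 10 h they summed to 1.43 CPM in toyocamycin replicate 1 and 27.9 CPM in replicate 2, the highest of the series, with VWF, COL1A1 and COL1A2 at 7.07, 5.64 and 5.42 CPM. At 72 h, 5 of the 7 colon markers tested were lower and 2 higher, and 5 of the 7 other markers tested were higher (all genes: 41.9% lower and 47% higher). All toyocamycin libraries were above all DMSO libraries for 3 of the 8 other markers (all genes: 45.8%). COL1A1 had 5, 133 and 15 counts with toyocamycin and 19, 8 and 11 with DMSO, and COL1A2 0, 61 and 0 against 0, 0 and 2. The part of the markers in the results was not tested. In bulk RNA, fewer cells with a transcript and less of it in each cell cannot be told apart.

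Several of the genes share short promoter elements that are textbook binding sites of the ATF6 and XBP1 factors together with NF-Y. The ER stress element (ERSE) was searched as CCAAT and CCACG 9 bases apart, and ERSE-II as ATTGG and CCACG 1 base apart, on both strands of the RefSeq promoter windows (GRCh38.p14, 250 bases before to 50 bases after the start). A window was at hand for 44 of the 50 genes. ERSE stood in 8 of these 44 (18.2%), against 25 of 27058 genes (0.0924%), and ERSE-II in 3 of 44 (6.82%), against 19 genes (0.0702%). The list was drawn up in part from genes known as XBP1 or ATF6 targets, so a higher share was built into that choice. The genes with ERSE were CALR, CANX, CRELD2, ERO1B, HSP90B1, HSPA5, PDIA6 and XBP1, and those with ERSE-II were HERPUD1, HYOU1 and SDF2L1. The elements of the 3 genes that were lower after 2 h are shown first, and those of CRELD2, PDIA6, HYOU1 and SDF2L1 follow because these genes were among those that fell later. Capitals mark the 2 motifs of the element, and each sequence is written 5′ to 3′ on the gene's strand.
XBP1 (chr22:28800598-28800626, minus strand): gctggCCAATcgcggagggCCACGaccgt
HSPA5 (chr9:125241386-125241414, minus strand): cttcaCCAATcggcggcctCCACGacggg
HERPUD1 (chr16:56932020-56932040, plus strand): cgccgATTGGgCCACGttggg
CRELD2 (chr22:49918549-49918577, plus strand): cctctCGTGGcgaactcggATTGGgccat
PDIA6 (chr2:10812848-10812876, minus strand): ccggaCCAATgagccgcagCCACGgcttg
HYOU1 (chr11:119057269-119057289, minus strand): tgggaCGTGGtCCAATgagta
SDF2L1 (chr22:21642109-21642129, plus strand): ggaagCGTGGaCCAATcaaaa
DNAJB9, which was also lower after 2 h, held neither element in its window. DERL1, KDELR2, PDIA3, SEC24D, SPCS1 and TRAM1 had no window. A match describes the letters only.

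The 2 h libraries address which of these genes responded first. After 2 h, 4 of the 50 genes were lower with toyocamycin and 0 were higher by edgeR's quasi-likelihood test at an adjusted p under 0.1, against 8.42% lower and 0.518% higher among all 14491 genes tested. The median log2 fold change of the 50 genes was -0.01, beside 0.02 over all genes. At an unadjusted p under 0.05, 5 genes were lower and 0 were higher, and DESeq2 also called 4 lower and 0 higher. The 4 genes were XBP1, DNAJB9, HERPUD1 and HSPA5. Without regard to any test, both drug libraries were below both controls for 8 genes and above them for 8 (all genes: 20.3% and 16.7%).

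XBP1 encodes the transcription factor of the IRE1 branch, on chromosome 22 from 28794555 to 28800597. Its level was 86.8 and 81.8 CPM in the DMSO libraries and 17.9 and 17.6 CPM in the toyocamycin libraries. The drug libraries lay far below both controls and close to each other. The log2 fold change was -2.25 ± 0.15 (SE, edgeR adjusted p = 1.69e-06), a fall to 0.211 of the control mean. Within each labelled batch, which is also the replicate number at this time, the log2 difference was -2.27 and -2.21.

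HERPUD1 encodes a membrane protein of the ER degradation complex, on chromosome 16 from 56932142 to 56944864. It measured 148.0 and 137 CPM with DMSO against 25.4 and 33.6 CPM with toyocamycin (log2 fold change -2.27 ± 0.17 SE, edgeR adjusted p = 2.81e-06). DNAJB9 encodes a co-chaperone that binds IRE1 and HSPA5, on chromosome 7 from 108569867 to 108574850. It measured 17.04 and 26.1 CPM against 3.31 and 4.88 CPM (log2 fold change -2.40 ± 0.25 SE, edgeR adjusted p = 2.84e-05). The groups did not overlap for either gene, and both fell to about the extent that XBP1 did.

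HSPA5, the main HSP70 chaperone of the ER, lies on chromosome 9 from 125234853 to 125241382. It fell by less, from 1466 and 1272 CPM to 882 and 938 CPM (log2 fold change -0.59 ± 0.15 SE, edgeR adjusted p = 0.0250). The groups did not overlap, but the call was lost without DMSO replicate 1 (-0.48, edgeR adjusted p = 0.1254) or without toyocamycin replicate 1 (-0.54, edgeR adjusted p = 0.140).

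The DMSO libraries themselves differed between times for these genes. Over the 8 DMSO libraries XBP1 ranged from 51.9 to 105 CPM, HERPUD1 from 48.3 to 148.0 CPM, DNAJB9 from 7.94 to 26.1 CPM and HSPA5 from 720 to 2182 CPM. After 2 h of toyocamycin, XBP1, HERPUD1 and DNAJB9 were below every DMSO library of any time. HSPA5 was inside the DMSO range. SEC24D, a coat protein subunit of vesicles leaving the ER, was also below every DMSO library at 14.9 and 16.8 CPM, beside 18.7 and 19.1 CPM in the 2 h controls, but was not called (-0.25 ± 0.17 SE, edgeR adjusted p = 0.565).

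**Figure D1:**
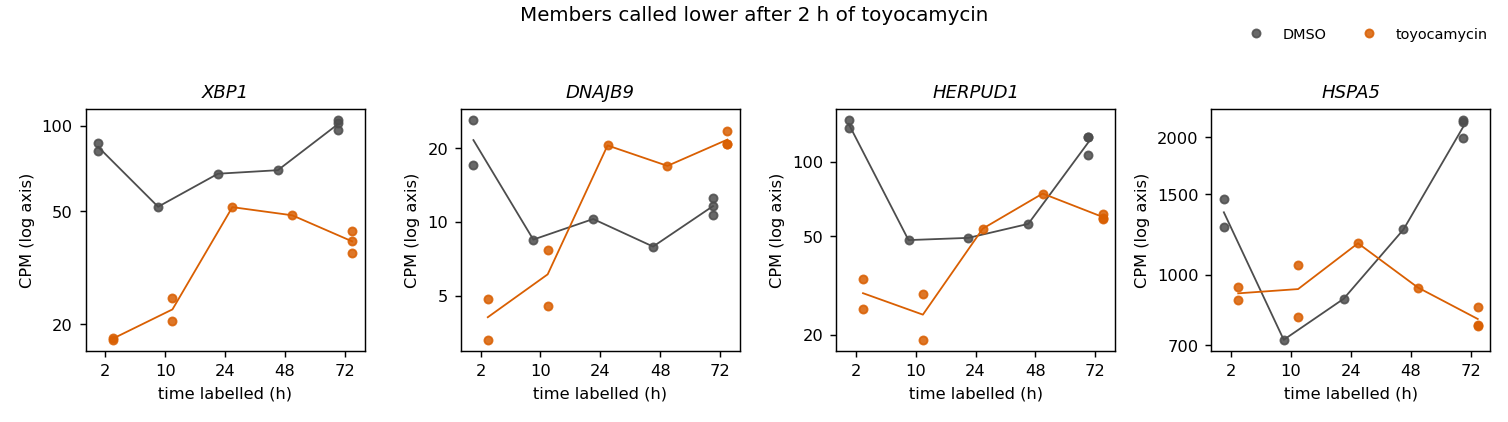
Level of XBP1, DNAJB9, HERPUD1 and HSPA5 in every library, in CPM on a log axis, against the labelled time (times evenly spaced, not to scale). Points are libraries and lines join the means of each treatment. At 2 h the toyocamycin libraries of XBP1 (17.9 and 17.6 CPM) lie below all 8 DMSO libraries, and at 72 h those of DNAJB9 lie above the DMSO libraries of that time.

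The sensor genes ERN1 and ATF6 were not called at 2 h. ERN1, the gene of IRE1, measured 28.7 and 27.2 CPM with DMSO and 22.0 and 20.2 CPM with toyocamycin, with no overlap, and was not called (-0.41 ± 0.17 SE, edgeR adjusted p = 0.242). ATF6 measured 56.6 and 71.7 CPM against 58.3 and 65.8 CPM, and the groups overlapped. SDF2L1, an ER chaperone partner, was at 123 and 74.0 CPM against 102 and 64.4 CPM, and its libraries followed the batch more than the drug. With the batch as a block in the libraries of 2 h alone, 8 genes were lower and 0 higher, against 18.7% lower and 8.72% higher among the 11848 genes of that fit. The 4 genes added were ERN1 (-0.42, edgeR adjusted p = 0.0150), SDF2L1 (-0.25, 0.0908), DNAJC3 (-0.30, 0.0355) and WFS1 (-0.35, 0.0135). The libraries of 2 h leave little spread of each gene's own after the block, so these p-values rest mainly on a spread shared over genes. With the block in all 14 libraries the same 4 genes as without it were called.

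No gene of the disulfide, targeting and vesicle groups was called at 2 h. HSP90B1, the HSP90 of the ER, was at 332 and 295 CPM in DMSO and 366 and 358 CPM in toyocamycin (0.21 ± 0.16 SE, edgeR adjusted p = 0.622). EDEM1, which directs misfolded glycoproteins to degradation, was at 49.7 and 70.1 CPM against 51.5 and 58.8 CPM, and SYVN1, the ubiquitin ligase of the same route, at 62.6 and 49.7 CPM against 49.1 and 50.7 CPM. The groups overlapped for both. Over the 46 genes not called, the fitted log2 fold change ran from -0.41 for ERN1 to 0.44 for SRP19.

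The 10 h libraries show a split within the set. There, 16 genes were higher and 11 lower with toyocamycin, against 20.4% and 24.4% of the 16521 genes tested. The median of the 50 genes was 0.19, below the 0.42 of all genes. The single DMSO library is assumed to vary like the other groups, and it belongs to batch 2, as does toyocamycin replicate 2. Without that toyocamycin replicate, 19 genes were higher and 10 lower (all genes: 24% and 28%), but drug and batch then cannot be told apart. The split moved with the scaling, as did that of all genes. With library size alone 8 were higher and 17 lower (all genes: 11.3% and 34.4%), and with scaling on mitochondrially encoded genes 1 was higher and 15 lower (all genes: 3.04% and 32.5%).

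Of the 16 genes that rose at 10 h, 9 fold proteins or form disulfide bonds. Of the 5 disulfide genes, 4 rose and 0 fell (all genes: 20.4% and 24.4%). PDIA6, a disulfide isomerase, was at 230 CPM in DMSO and at 582 and 457 CPM in toyocamycin (1.18 ± 0.24 SE, edgeR adjusted p = 0.00130). P4HB, another disulfide isomerase, rose by 1.02 ± 0.28 on the log2 scale (edgeR adjusted p = 0.0108). PDIA3 and PDIA4 rose by 0.85 and 0.87 (edgeR adjusted p = 0.0383 and 0.0423), and both calls were lost without toyocamycin replicate 1. With scaling on mitochondrially encoded genes PDIA3, PDIA4 and P4HB turned to -0.21, -0.17 and -0.0420.

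Of the 12 chaperones and co-chaperones, 5 rose and 0 fell (all genes: 20.4% and 24.4%). HSP90B1 was at 301 CPM in DMSO and 759 and 598 CPM in toyocamycin (1.17 ± 0.26 SE, edgeR adjusted p = 0.00233). CRELD2, a folding factor secreted under ER stress, rose by 1.09, and DNAJC10, a co-chaperone that reduces disulfides, by 0.93. CANX, the membrane lectin chaperone, rose by 0.66, and HYOU1, a large HSP70-like chaperone, by 0.52. Without toyocamycin replicate 2, CANX and DNAJC10 were not called, and HSPA5 (0.55), SDF2L1 (0.97) and MANF (0.61) were called higher instead. Within batch 2 the log2 differences of these 3 genes were 0.17, -0.24 and 0.028. SDF2L1 was at 48.25 CPM in DMSO and on both sides of it in toyocamycin, at 93.9 and 40.9 CPM. CANX, DNAJC10 and HYOU1 turned to -0.51, -0.28 and -0.58 with scaling on mitochondrially encoded genes.

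Of the 16 targeting and translocation genes, 6 rose and 2 fell at 10 h (all genes: 20.4% and 24.4%). SRP19, a protein of the signal recognition particle that brings ribosomes to the ER, rose most of the 50 genes, from 4.85 CPM in DMSO to 39.1 and 38.7 CPM (3.00 ± 0.31 SE, edgeR adjusted p = 4.14e-06). SSR4 and SSR2, subunits of the translocon-associated complex, rose by 1.23 and 0.76, and SPCS1, of the signal peptidase, by 1.04. SEC61A1 and SEC61B, subunits of the channel itself, rose by 0.61 and 1.06. SRP54, which recognises the signal peptide, fell by 0.91, and TRAM1, a translocation helper, fell by 0.63, a call lost without toyocamycin replicate 2. With scaling on mitochondrially encoded genes SEC61A1, SSR2, SPCS1 and SEC61B turned to -0.53, -0.39, -0.036 and -0.017.

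Of the 11 falls at 10 h, 3 were in vesicle traffic, 3 in degradation, 2 among the sensors, 2 in targeting as given above and 1 was WFS1, a membrane protein of the ER (-1.07 ± 0.28 SE, edgeR adjusted p = 0.00709). SEC24D fell from 25.9 CPM to 3.998 and 7.74 CPM (-2.18 ± 0.28 SE, edgeR adjusted p = 2.71e-05). The other coat subunits SEC23B and SEC31A fell by 1.16 and 1.04, whereas KDELR2, a receptor that retrieves ER proteins, rose by 0.52 (-0.62 with scaling on mitochondrially encoded genes). SYVN1 fell from 44.1 CPM to 13.1 and 11.3 CPM (-1.85 ± 0.23 SE, edgeR adjusted p = 1.86e-05), and its adaptor SEL1L fell by 1.21. HERPUD1 was at 48.3 CPM in DMSO and 29.2 and 19.1 CPM in toyocamycin (-0.99 ± 0.25 SE, edgeR adjusted p = 0.00583). XBP1 was at 51.9 CPM against 24.6 and 20.4 CPM (-1.20 ± 0.20 SE, edgeR adjusted p = 3.01e-04), and ATF6 at 69.6 CPM against 45.0 and 42.7 CPM (-0.67 ± 0.23 SE, edgeR adjusted p = 0.0310).

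DNAJB9, ERN1 and HSPA5 were not called at 10 h. DNAJB9 was at 8.48 CPM in DMSO and at 7.71 and 4.53 CPM in toyocamycin, with the lower value in replicate 2. ERN1 was at 19.8 CPM against 22.6 and 17.02 CPM, on both sides of the control. HSPA5 was at 720 CPM against 1051 and 808 CPM, both above the control with TMM scaling. Relative to the library totals both were below it, with 14724 of 16652025 and 7312 of 8735465 counts against 17068 of 18448013.

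At 24 and 48 h there was 1 library per treatment, so the differences have no replicate check and no p-value. At 24 h, 13 genes were at least 2-fold lower and 7 at least 2-fold higher (all genes: 24% and 25.2%), and the median difference in log2 CPM was 0.11 beside 0 for all genes. PDIA3 stood at 332 CPM in DMSO and 1180 CPM in toyocamycin, P4HB at 623 and 1740 CPM, PDIA6 at 243 and 779 CPM, and PDIA4 at 720 and 1645 CPM. HSP90B1 stood at 402 and 878 CPM. These 5 genes, SSR4 and SRP19 made up the 7. With TMM scaling each of the 5 had its highest level of the series in that library. By raw counts HSP90B1 (12763 against 10327) and PDIA4 (23917 against 18485) were less than 2-fold higher. The drug library also had the larger total (22121364 against 19504738). Both genes had more counts in DMSO replicate 3 of 72 h (18913 and 31588), whose total was 20756242.

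The fifth disulfide gene, the oxidase ERO1B, went the other way, from 12.5 to 3.37 CPM. SYVN1 (50.5 and 9.56 CPM), SEL1L (152 and 30.1 CPM) and GFPT1 (101 and 22.8 CPM) showed the largest log2 differences downward, -2.39, -2.34 and -2.15. GFPT1 is the first enzyme of the hexosamine pathway, which feeds glycosylation. XBP1 was at 67.9 CPM in DMSO and 51.7 CPM in toyocamycin, HERPUD1 at 49.3 and 53.8 CPM, DNAJB9 at 10.3 and 20.5 CPM, and HSPA5 at 885 and 1171 CPM. With TMM scaling, then, only XBP1 of these 4 early genes was below its control at 24 h. In raw counts HERPUD1 (782 against 1267) and HSPA5 (17027 against 22723) were also below theirs, and DNAJB9 had 298 against 264. The drug library had the larger total (22121364 against 19504738), so the direction for HERPUD1 and HSPA5 depended on the scaling.

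At 48 h, 21 genes were at least 2-fold lower and 2 at least 2-fold higher (all genes: 26.3% and 35.6%), with a median of -0.66 beside 0.13 for all genes. DNAJC10 stood at 105 CPM in DMSO and 7.40 CPM in toyocamycin, KDELR3, a second retrieval receptor, at 141 and 13.9 CPM, and SPCS3, of the signal peptidase, at 76.2 and 9.03 CPM. Among the chaperones 8 of 12 were at least 2-fold lower. The 2 genes that were higher were SRP19 (4.43 and 113 CPM) and DNAJB9 (7.94 and 16.9 CPM). With TMM scaling PDIA3 was still above its control at 376 and 497 CPM, and P4HB at 741 and 953 CPM. Relative to the library totals (16003406 with toyocamycin and 18028273 with DMSO) both were below it. PDIA3 had 6103 counts against 7817 and P4HB 11709 against 15400. On that basis DNAJB9 was less than 2-fold higher (208 counts against 165).

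**Figure D2:**
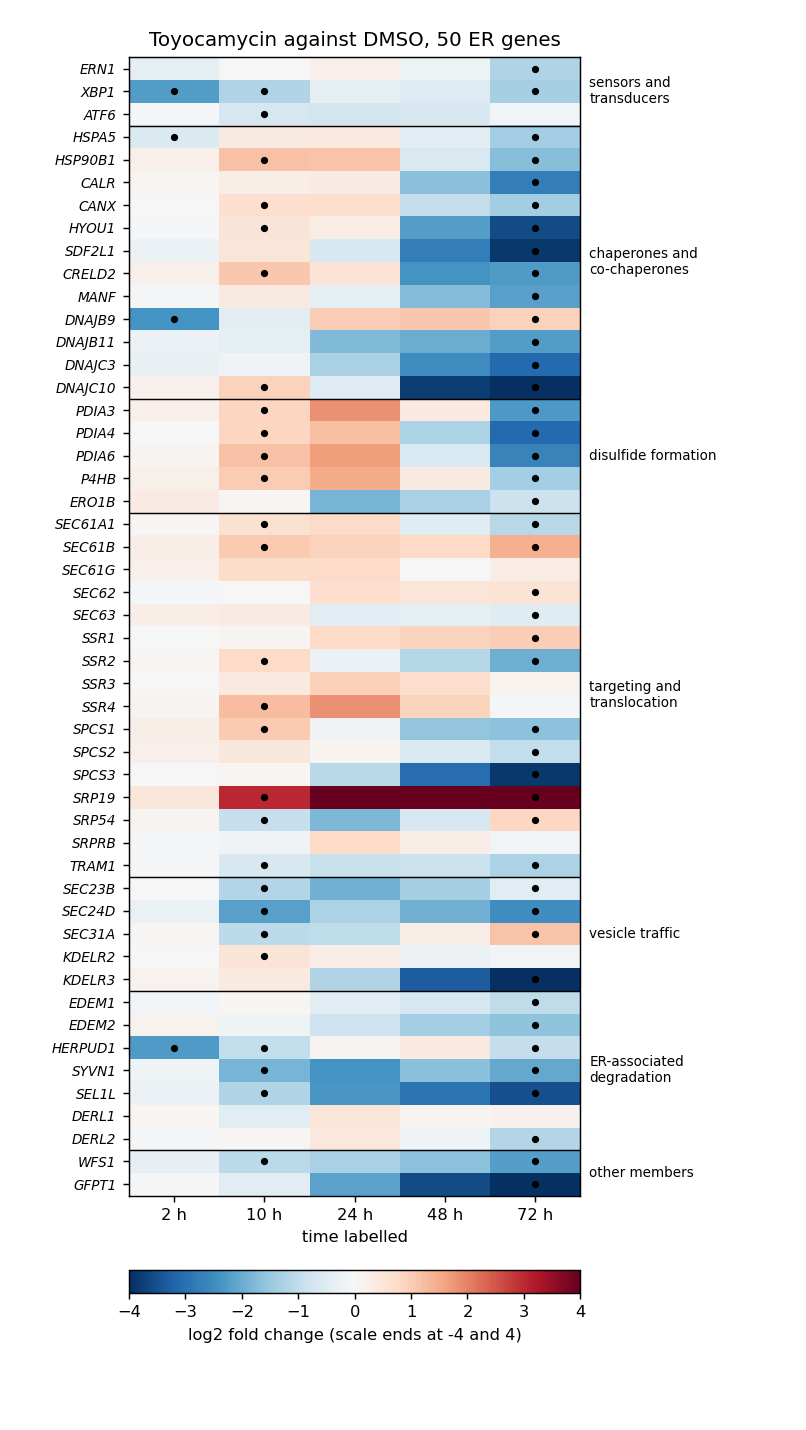
Log2 fold change of toyocamycin against DMSO for the 50 genes (rows, by role) at each labelled time (columns). Blue is lower and red is higher with toyocamycin, the colour scale ends at -4 and 4, and dots mark genes called at an adjusted p under 0.1 (2, 10 and 72 h only; 24 and 48 h have 1 library per treatment). The 4 dots at 2 h, the red disulfide rows at 10 and 24 h and the blue column at 72 h stand out.

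By 72 h, with 3 libraries per treatment, 36 of the 50 genes were lower and 7 higher with toyocamycin, against 41.9% lower and 47% higher among all 14491 genes tested. The 50 genes had a median of -1.35 on the log2 scale and all genes one of 0.18. For all 36 genes the 3 toyocamycin libraries were below the 3 DMSO libraries (all genes: 41.8%), and for 8 genes all were above (all genes: 45.8%). The split again moved with the scaling. It was 34 lower and 11 higher with the size factors of DESeq2 (all genes: 37.1% and 51.4%), 42 and 4 with library size alone (all genes: 50.4% and 39%), and 42 and 1 with scaling on mitochondrially encoded genes (all genes: 50.8% and 29%).

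Among the sensors, ERN1 and XBP1 were lower and ATF6 was not called. XBP1 measured 102, 105 and 96.8 CPM in DMSO and 42.7, 35.6 and 39.3 CPM in toyocamycin (-1.34 ± 0.12 SE, edgeR adjusted p = 3.84e-08). ERN1 measured 24.2, 22.9 and 21.9 CPM against 8.35, 10.8 and 10.1 CPM (-1.20 ± 0.15 SE, edgeR adjusted p = 1.86e-06). In both, every drug library lay below every control of any time. ATF6 overlapped, at 53.5, 57.5 and 67.4 CPM against 59.9, 47.8 and 53.8 CPM (-0.11 ± 0.14 SE, edgeR adjusted p = 0.466).

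Of the 12 chaperones and co-chaperones, 11 were lower and 1 was higher (all genes: 41.9% and 47%). HSPA5 measured 1987, 2182 and 2158 CPM in DMSO and 851, 777 and 770 CPM in toyocamycin (-1.37 ± 0.13 SE, edgeR adjusted p = 4.97e-08). The groups were far apart at this time, although the drug libraries were above the 720 CPM of the DMSO library at 10 h. HSP90B1 measured 599, 644 and 812 CPM against 221, 194 and 208 CPM (-1.69 ± 0.14 SE, edgeR adjusted p = 1.30e-08), below every DMSO library.

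DNAJC10 fell most in this group, from 74.2, 68.5 and 90.7 CPM to 4.62, 2.50 and 4.17 CPM (-4.34 ± 0.24 SE, edgeR adjusted p = 1.32e-10), a mean that was 20.7-fold lower. SDF2L1 fell from 143, 139 and 96.01 CPM to 7.96, 7.97 and 9.30 CPM (-3.87 ± 0.25 SE, edgeR adjusted p = 6.72e-10). HYOU1 and DNAJC3, a co-chaperone that also inhibits PERK, fell by 3.59 and 3.11. CALR, the soluble lectin chaperone, fell by 2.78 and its membrane partner CANX by 1.39, so the pair did not fall to the same extent. CRELD2, DNAJB11, which serves HSPA5, and MANF, a secreted ER stress factor, fell by 2.26, 2.23 and 2.17.

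DNAJB9 was the exception. Its 3 toyocamycin libraries (23.5, 20.8 and 20.7 CPM) were all above the 3 DMSO libraries (11.6, 10.7 and 12.5 CPM), with a log2 fold change of 0.93 ± 0.19 (SE, edgeR adjusted p = 2.66e-04). The DMSO level at 2 h (17.04 and 26.1 CPM) was as high as the drug level at 72 h. With scaling on mitochondrially encoded genes the direction turned (-0.13).

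All 5 disulfide genes were lower at 72 h (all genes: 41.9%). PDIA4 fell most, from 1324, 1430 and 1356 CPM to 147, 153 and 164 CPM (-3.11 ± 0.14 SE, edgeR adjusted p = 1.75e-11). PDIA6, PDIA3 and P4HB fell by 2.66, 2.31 and 1.37, and ERO1B by 0.87. The same PDIA3, PDIA4, PDIA6, P4HB and HSP90B1 had been at least 2-fold higher at 24 h, with TMM scaling and 1 library per treatment. The other 2 genes that had been 2-fold higher then were SSR4, which was not called at 72 h, and SRP19, which was higher. In all, 12 of the 16 genes that were higher at 10 h (75%) were lower at 72 h, and of all genes higher at 10 h 33.1% were. Of these 12, 0 were called higher at 10 h with scaling on mitochondrially encoded genes, under which HSP90B1, CRELD2 and PDIA6 stayed above 0 and the other 9 were below it.

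**Figure D3:**
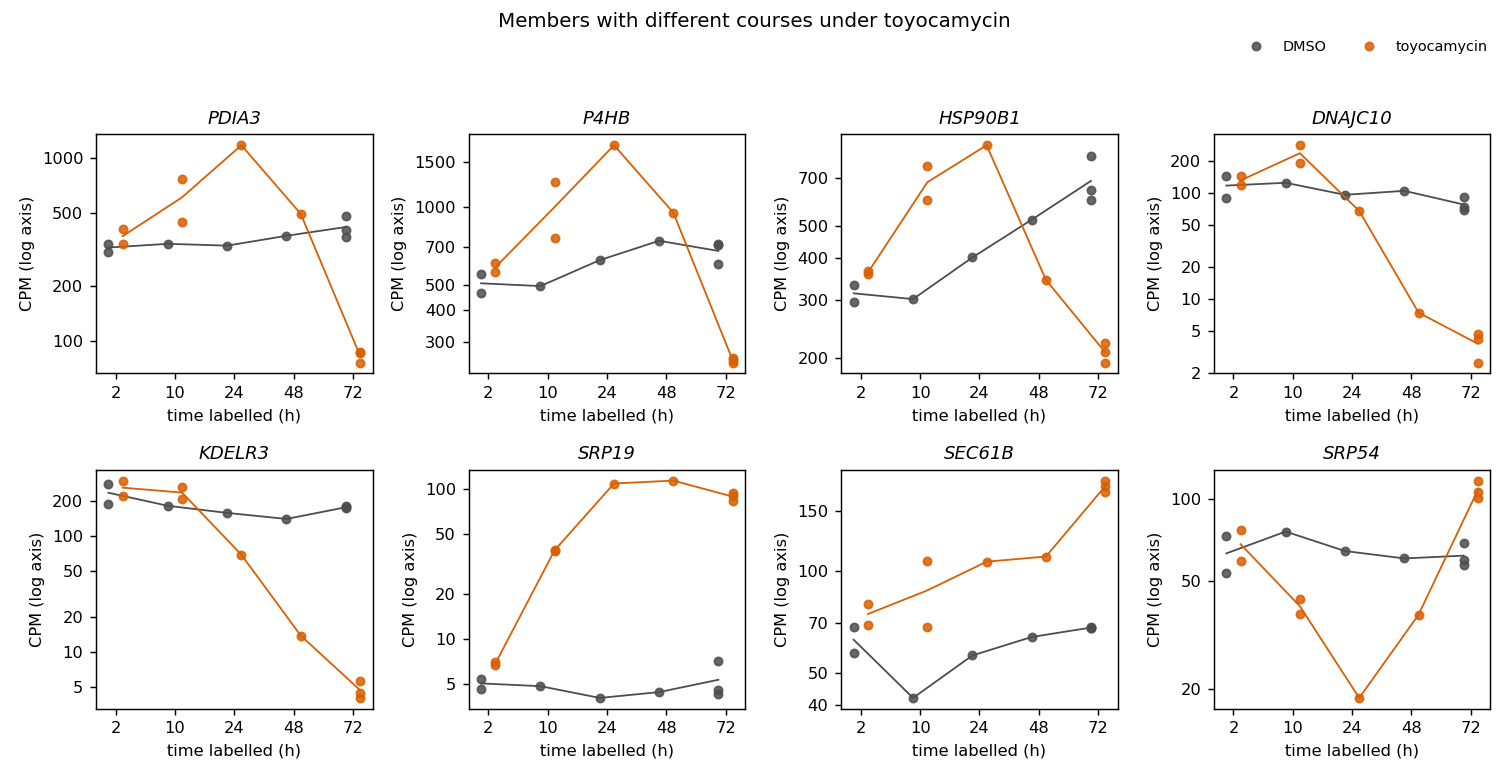
Level of 8 genes in every library, in TMM-scaled CPM on a log axis, against the labelled time (times evenly spaced, not to scale). Points are libraries and lines join the means of each treatment. PDIA3, P4HB and HSP90B1 peak at 24 h with toyocamycin (1180, 1740 and 878 CPM) and end below DMSO, KDELR3 and DNAJC10 decline from 24 h on, SRP19 and SEC61B end above DMSO, and SRP54 is below DMSO at 10 and 24 h and above it at 72 h.

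The 16 targeting and translocation genes were divided, as were all genes (41.9% lower and 47% higher), with 7 lower (43.8%) and 5 higher (31.2%). Their median was -0.07, beside 0.18 for all genes. SPCS3 fell most, from 58.4, 49.6 and 75.8 CPM to 4.32, 3.52 and 4.52 CPM (-3.86 ± 0.23 SE, edgeR adjusted p = 3.56e-10). Its partners in the signal peptidase fell by less, SPCS1 by 1.65 and SPCS2 by 0.97. SSR2 fell by 1.95, TRAM1 by 1.27, SEC61A1 by 1.11 and SEC63, which couples the channel to HSPA5, by 0.50.

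SRP19, on chromosome 5 from 112861188 to 112898371, rose most of the 50 genes. It measured 4.61, 4.27 and 7.17 CPM in DMSO and 94.0, 88.9 and 82.5 CPM in toyocamycin (4.07 ± 0.19 SE, edgeR adjusted p = 1.90e-11), a mean 16.5-fold higher. No control library of any time came near the drug libraries from 10 h on. The annotated gene overlaps REEP5 on the opposite strand, and whether the counting used strand was not given in the sources used here. REEP5 was itself higher at 72 h (0.78 ± 0.14 SE, edgeR adjusted p = 7.46e-05), and its part in the SRP19 count was not tested.

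The other 4 genes of this group that were higher were SEC61B, SSR1, SRP54 and SEC62. SEC61B rose by 1.42 ± 0.12 (edgeR adjusted p = 2.01e-08) while the pore subunit SEC61A1 fell and the third subunit SEC61G was not called (0.28 ± 0.21 SE). SSR1 rose by 0.98 while SSR2 fell and SSR3 and SSR4 were not called. SRP54 rose by 0.84 after having been lower at 10 h. With scaling on mitochondrially encoded genes SSR1, SRP54 and SEC62 turned to -0.0774, -0.22 and -0.49, and SEC62 was at -0.049 with library size alone. SRPRB, a receptor subunit for the signal recognition particle, was not called at 2, 10 or 72 h, nor were SEC61G, SSR3 and the degradation gene DERL1.

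The vesicle group held the largest fall of the set. KDELR3, on chromosome 22 from 38468078 to 38483447, measured 178, 174 and 183 CPM in DMSO and 4.03, 5.65 and 4.43 CPM in toyocamycin (-5.21 ± 0.21 SE, edgeR adjusted p = 5.19e-12), a mean 37.8-fold lower. KDELR2, its close relative, did not follow, at 133, 145 and 166 CPM against 132, 134 and 138 CPM (-0.11 ± 0.14 SE, edgeR adjusted p = 0.472). SEC24D fell by 2.48 and SEC23B by 0.42.

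SEC31A, which builds the outer coat, rose from 37.5, 37.3 and 45.1 CPM to 88.7, 82.9 and 84.4 CPM (1.13 ± 0.15 SE, edgeR adjusted p = 5.20e-06). It had been lower at 10 h (51.4 CPM against 21.8 and 28.3 CPM), as had SRP54. THAP9, which overlaps SEC31A on the opposite strand, was also higher at 72 h (1.504), and its part in the count was not tested. SEC31A and SRP54 were the 2 genes of the 50 that were called lower at 10 h and higher at 72 h.

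Of the 7 degradation genes, 6 were lower and 0 higher (all genes: 41.9% and 47%). SEL1L fell most, from 152, 161 and 196 CPM to 15.3, 14.1 and 13.99 CPM (-3.52 ± 0.18 SE, edgeR adjusted p = 6.86e-11). SYVN1, its ligase partner, fell from 74.8, 82.7 and 65.7 CPM to 15.5, 19.5 and 18.2 CPM (-2.03 ± 0.15 SE, edgeR adjusted p = 3.97e-09). EDEM1 fell from 60.6, 64.5 and 77.9 CPM to 32.8, 35.7 and 30.1 CPM (-1.01 ± 0.16 SE, edgeR adjusted p = 1.97e-05). All 3 were below every DMSO library.

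HERPUD1 measured 107, 127 and 126 CPM in DMSO and 59.6, 58.7 and 61.6 CPM in toyocamycin at 72 h (-0.97 ± 0.13 SE, edgeR adjusted p = 5.57e-06). The groups did not overlap, but the drug libraries were above the DMSO libraries of 10, 24 and 48 h (48.3, 49.3 and 56.2 CPM). EDEM2 and DERL2, of the same route, fell by 1.62 and 1.16. GFPT1 fell from 109, 111 and 143 CPM to 5.31, 4.91 and 6.87 CPM (-4.37 ± 0.19 SE, edgeR adjusted p = 1.20e-11), and WFS1, which acts on ATF6, fell by 2.21.

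**Figure D4:**
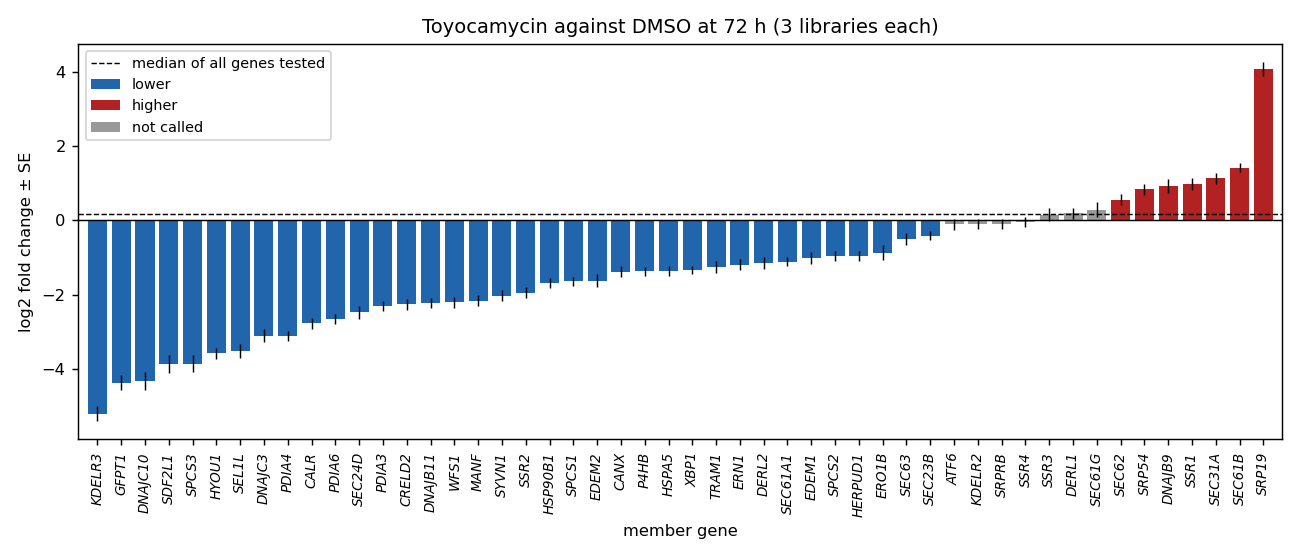
Log2 fold change of toyocamycin against DMSO at 72 h for each of the 50 genes, in order of size, with 3 libraries per treatment. Bars are fitted values with standard errors, coloured by call, and the dashed line is the median of all genes tested (0.18). Bars run from KDELR3 (-5.21) to SRP19 (4.07), with 36 lower, 7 higher and 7 not called.

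Taking all DMSO libraries of any time as the reference range, 31 genes were below it in all 3 toyocamycin libraries of 72 h and 6 were above it. The 6 were SEC61B, SEC62, SSR1, SRP19, SRP54 and SEC31A. How many of all genes lay outside their own range was not counted, so 31 and 6 have no background share. Against the DMSO libraries of 72 h alone, 41.8% of all genes were below and 45.8% above. The 5 genes that were called lower at 72 h but overlapped the range of all DMSO libraries were HSPA5, HERPUD1, ERO1B, SEC63 and SEC23B. These genes differed from the controls of the same time, yet not from every control of the series.

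The share of all counts that fell on the 50 genes was taken on raw totals, without TMM scaling. It was 1.10% ± 0.0113 (SD, n = 2) with DMSO and 1.01% ± 0.0617 (SD, n = 2) with toyocamycin at 2 h, and 1.04% against 1.06% and 1.07% at 10 h. It then stood at 1.07% and 0.868% at 24 h and at 1.13% and 0.499% at 48 h. At 24 h the share was thus lower with toyocamycin, whereas the TMM-scaled median difference was 0.11 (-0.89 with library size alone). At 72 h the share was 1.27% ± 0.0539 (SD, n = 3) with DMSO and 0.312% ± 0.0192 (SD, n = 3) with toyocamycin, and the groups did not overlap. With 3 libraries against 3, an exact two-sided permutation test cannot go below 0.10, so no p is given.

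**Figure D5:**
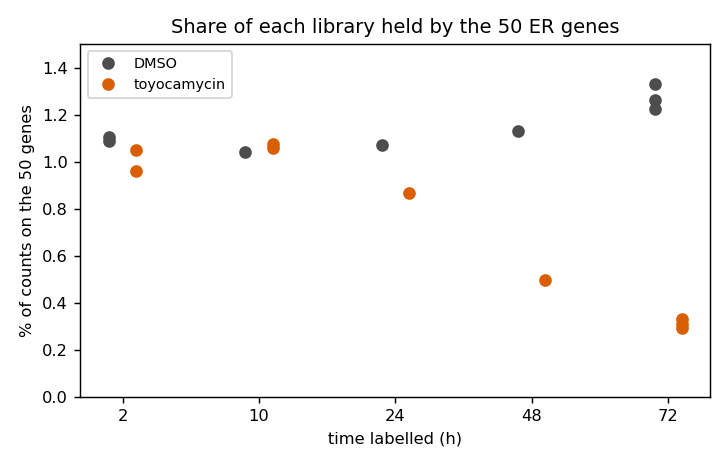
Share of each library's counts that fell on the 50 genes, in percent, against the labelled time (times evenly spaced, not to scale), with 1 point per library. The 8 DMSO libraries lie between 1.04% and 1.33%, and the 3 toyocamycin libraries of 72 h between 0.294% and 0.332%.

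Part of the separation at 72 h came with movement in the controls. Between 2 and 72 h of DMSO, 9 genes were higher and 3 lower (all genes: 10.2% and 11.4%). HSP90B1 rose by 1.13 ± 0.16, PDIA4 by 1.06 ± 0.15, MANF by 1.003 ± 0.16 and HSPA5 by 0.62 ± 0.14 (edgeR adjusted p = 2.08e-04, 2.89e-04, 8.27e-04 and 0.00751). DNAJB9 fell by 0.89 ± 0.20, SPCS3 by 0.86 ± 0.20 and DNAJC10 by 0.59 ± 0.21. DMSO replicate 2 at 2 h is of batch 2, the 72 h libraries are all of batch 1, and without that replicate 5 genes were higher and 0 lower. Without DMSO replicate 1 of 2 h 10 were higher and 8 lower, and without replicate 1 or replicate 2 of 72 h 5 were higher and 2 lower.

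Whether the drug effect had changed by 72 h was tested as a contrast of the effects, 72 h minus 2 h. It was below 0 for 34 genes and above 0 for 9 (all genes: 38.1% and 38%). For XBP1 (0.91), HERPUD1 (1.31) and DNAJB9 (3.33) the later effect was the less negative or the opposite one. For HSPA5 (-0.78) and ERN1 (-0.80) it was more negative.

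The genes with a promoter element can be set beside the others. At 72 h all 11 genes with ERSE or ERSE-II were lower and 0 higher, with a median of -1.69, and of the 33 with a window and no element 21 were lower and 7 higher, with a median of -1.11. At 10 h, 5 of the 11 were higher and 2 lower, against 8 and 7 of the 33. At 2 h, 3 of the 11 were lower against 1 of the 33. Of all genes tested, 41.9% were lower and 47% higher at 72 h. The same shares were 24.4% and 20.4% at 10 h, and 8.42% and 0.518% at 2 h. The 11 genes include many of the most abundant chaperones, and the difference between the groups was not tested.

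Other genes of the same pathways were taken as lists. At 72 h, 41.9% of all genes tested were lower and 47% higher, and a list count near these shares is no result about that list. Of 8 other sensors and their processing enzymes, 5 were lower and 2 higher at 72 h. They included ATF6B, a relative of ATF6, at -4.87, CREB3L2 at -2.38, MBTPS1, the Golgi protease that cuts ATF6, at -1.97, and CREB3 at -1.91. Of 13 other folding enzymes 7 were lower and 4 higher, with SIL1, the exchange factor of HSPA5, at -2.30, FKBP11 at -2.06, the oxidase ERO1A at -2.05 and the prolyl isomerase FKBP7 at 1.96.

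Of 15 other genes of targeting, signal peptidase and glycosylation, 7 were lower and 5 higher at 72 h (all genes: 41.9% and 47%). The 4 furthest from 0 were STT3A, RPN1 and RPN2 of the oligosaccharyltransferase (-1.96, -1.64 and -1.82) and SRP72 of the signal recognition particle (-1.94). Of 11 other vesicle genes 9 were lower and 2 higher, with SEC23A at -3.01, the cargo receptor LMAN1 at -2.90, KDELR1 at -2.46 and SEC24A at -1.59. KDELR1 thus fell with KDELR3, whereas KDELR2 was not called.

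Of 12 other degradation genes, 7 were lower and 4 higher at 72 h (all genes: 41.9% and 47%). The lectin ERLEC1 was at -3.02, UBE2J1, a ubiquitin-conjugating enzyme, at -2.01 and EDEM3 at -1.22. DERL3, a relative of DERL1 and DERL2, had 0 counts in each DMSO library of 72 h and 43, 56 and 85 counts in the toyocamycin libraries. Of 6 transcripts reported elsewhere as decay targets of IRE1, 3 were lower and 1 higher at 72 h (all genes: 41.9% and 47%). The higher 1, SPARC, had 2, 19 and 8 counts in toyocamycin and 5, 4 and 3 in DMSO, so its groups overlapped at few counts. SCARA3 was at -3.74, PMP22 at -3.45 and HGSNAT at -2.12, whereas BLOC1S1 had 14, 6 and 3 counts in DMSO and 3, 1 and 5 in toyocamycin, too few to show a difference. At 2 h, 0 of these 6 were called (all genes: 8.42% lower and 0.518% higher).

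The PERK branch was taken as 7 genes. Of all genes tested, 8.42% were lower and 0.518% higher at 2 h, and 41.9% and 47% at 72 h. At 2 h, 4 of them were lower and 0 higher: CHAC1, a glutathione-degrading enzyme, by -2.82, DDIT3, the factor known as CHOP, by -2.48, PPP1R15A, which restores translation, by -1.08, and the factor ATF3 by -0.83. ATF4 (0.18), ASNS (-0.25) and TRIB3 (-0.45) were not called at 2 h. At 72 h 7 of 7 were higher. The smallest was CHAC1 at 0.59, less than the shift in the median of all genes, from 0.18 to -0.89, with scaling on mitochondrially encoded genes. ATF4, the main factor of the branch, was at 134, 170 and 171 CPM in DMSO and 6988, 6871 and 6550.1 CPM in toyocamycin (5.46 ± 0.18 SE, edgeR adjusted p = 9.86e-13). ATF3 was at 9.85, PPP1R15A at 4.05 and ASNS, the asparagine synthetase, at 3.998. The gene of PERK itself, EIF2AK3, was at -1.19 at 2 h.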

How the data were processed

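PolyA RNA was sequenced in paired reads. Per the labels and the paper's methods, the authors aligned reads to GRCh38 with STAR 2.7.5a and deposited raw counts per gene as counted by STAR; the strand setting was not given in the sources used here. A second deposited table holds the authors' log2 fold changes and p-values and was not used. The count table also has 1 per-sample column that matches no sample of the series, and it was left out. Of 19141 gene identifiers, 19080 were matched to a symbol.

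Groups, batches and replicate numbers came from the labels. Genes were filtered with filterByExpr, libraries scaled with TMM, and contrasts tested with edgeR 4.0.16 (R 4.3.3) by the quasi-likelihood test in the form of edgeR 3, with Benjamini-Hochberg adjustment over all genes tested. A gene was called at an adjusted p under 0.1, with no minimum fold, after the paper's methods. A fit of 14 libraries (14491 genes) gave the results of 2 and 72 h, and a fit of all 17 (16521 genes) those of 10 h. CPM used TMM factors of the 17 libraries. At 24 and 48 h the difference of log2 CPM (prior count 2) was used, without a test.

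The labels speak of biological triplicates and of no separate cultures beyond that, so p-values measure the spread between these libraries. At 2 h the replicate number is the labelled batch, and deviations from the group means correlated within a number (r = 0.307). The numbers were therefore taken to pair the libraries there in the fits with a block. The main fit had no block, so the p-values of 2 h not named as blocked leave out this pairing. At 72 h the deviations did not correlate within a number (r = -0.105, 0.0427 and -0.0876).

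Values in every library are given for ERN1, XBP1, ATF6, HSPA5, HSP90B1, DNAJB9, HERPUD1, SDF2L1, EDEM1 and SYVN1 and for the largest rise and fall of each role group at 2 and 72 h among genes called, and other lists name up to 4 genes. The members and lists were chosen with earlier results of these data known. Of the 50 genes, 17 overlap a counted gene on the other strand: HSP90B1, CANX, CRELD2, DNAJB11, PDIA3, PDIA6, ERO1B, SEC61A1, SSR4, SPCS1, SRP19, SRPRB, SEC31A, KDELR3, SYVN1, DERL1 and DERL2. Gene positions are from GENCODE and promoters from RefSeq, both on GRCh38. The test was run on simulated counts first. Alternatives covered scaling, filter, tool, threshold, batch, block and each library left out. Read counts without molecular identifiers carry more than counting error.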

Additional observations from a re-analysis of the deposited data

Results flagged for a closer look

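The difference between the effects of toyocamycin at 72 and 2 h was tested (edgeR's quasi-likelihood test, adjusted p under 0.1). The later effect was below the earlier one for 34 of the 50 genes and above it for 9 (all genes: 38.1% and 38%). The genes that follow are those of them that were also called at 2 h. They were thus chosen on the 2 h effect that the contrast subtracts. XBP1 went from -2.25 to -1.34 (difference 0.91, adjusted p = 4.64e-04) and HERPUD1 from -2.27 to -0.97 (difference 1.31, adjusted p = 4.22e-05). DNAJB9 went from -2.40 to 0.93 (difference 3.33, adjusted p = 1.20e-07), and HSPA5 from -0.59 to -1.37 (difference -0.78, adjusted p = 0.00212). No group had 4 or more libraries, so no single library was tested for standing apart.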

How the results depend on the processing

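Calls rest on 2 libraries per group at 2 h and on 1 DMSO library at 10 h, and the lowest count of a member in any library was 27, for DNAJC10 in a toyocamycin library of 72 h. XBP1, DNAJB9 and HERPUD1 were called lower at 2 h under all alternatives run; HSPA5 was not with mitochondrial scaling, a minimum fold of 1.2, all 17 libraries, the 2 h libraries alone, or without either treatment's replicate 1. Paired by replicate, the 2 h libraries alone gave 8 lower, and the replicate block moved no other count of calls by over 1.5 times. Leaving out a library moved the DMSO comparison (lower 0 to 8, higher 5 to 10), the 2 h median (-0.12 to 0.13) and the 10 h median (0.075 to 0.20, and 0.074 within batch 2), where the cause was not tested.
With library size alone, calls were 17 lower and 8 higher at 10 h, 4 higher at 72 h, 5 higher for the change of effect, and 10 lower and 5 higher in DMSO. With mitochondrial scaling they were 1 higher at 10 h, 1 at 72 h, 2 for the change of effect, and 0 lower and 3 higher in DMSO. DESeq2 size factors and DESeq2's test each gave 11 higher at 72 h, and a minimum fold of 1.2 gave 5 higher in DMSO. The medians under DESeq2 size factors, library size and mitochondrial scaling were 0.032, -0.061 and -0.082 at 2 h, 0.39, -0.27 and -0.95 at 10 h, 0.29, -0.89 and -2.14 at 24 h, -0.39, -1.24 and -2.47 at 48 h, and -1.03, -1.95 and -2.42 at 72 h. The median of all genes at 72 h was 0.50, -0.42 and -0.89 under the same scalings. With at least 10 counts in every library the medians were 0.33, -0.40 and -1.07 at 10, 48 and 72 h.
Mitochondrial scaling reversed CANX (-0.51), HYOU1 (-0.58), DNAJC10 (-0.28), PDIA3 (-0.21), PDIA4 (-0.17), P4HB (-0.0420), SEC61A1 (-0.53), SEC61B (-0.017), SSR2 (-0.39), SPCS1 (-0.036) and KDELR2 (-0.62) at 10 h, and DNAJB9 (-0.13), SEC62 (-0.49), SSR1 (-0.0774), SSR3 (-0.90), SRP54 (-0.22) and DERL1 (-0.88) at 72 h. Library size reversed SEC62 (-0.049), SSR3 (-0.46) and DERL1 (-0.41) at 72 h, and DESeq2 size factors and DESeq2's test reversed SSR4 (0.27).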
